A study of Mus musculus with 8 samples.

Results

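The CC chemokines are small secreted proteins that attract leukocytes, and 10 of their genes were followed in mouse tail epidermis: Ccl1, Ccl2, Ccl5, Ccl7, Ccl8, Ccl17, Ccl20, Ccl22, Ccl25 and Ccl28. They were chosen by name, not by a measured value, out of 46983 gene identifiers in a table of read counts. RNA-seq had been done on 4 SKO and 4 CTR mice, all 8 weeks old. The labelled strain joins the Cre transgene Tg(KRT14-cre)1Amc/J with the alleles Ppp1r8tm1Ave and Ppp1r8tm1.1Itl. SKO mice were K14-Cre/+ Ppp1r8 fl/-, that is, they carried 1 floxed and 1 deleted allele of Ppp1r8, the gene for the nuclear phosphatase regulator NIPP1. CTR mice were K14-Cre/+ Ppp1r8 fl/+, so they carried the Cre transgene and a floxed allele too, beside an intact allele. The keratin 14 promoter drives Cre in basal keratinocytes and their descendants, not in the immune cells of the epidermis, and the epidermis had been lifted off the dermis with dispase, so each library holds the RNA of keratinocytes and of whatever other cells came with the sheet.

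CC chemokines bind G protein-coupled receptors of the CCR family on leukocytes and guide them along a concentration gradient, while atypical receptors of the ACKR family take the ligands up without such signalling. Some members are inflammatory and are switched on by cytokines acting through NF-kappaB, and others are made constitutively at barrier surfaces. In skin, keratinocytes, Langerhans cells, fibroblasts and resident T cells are all known sources. The members fall into groups by receptor: Ccl2 and Ccl7 act on CCR2, Ccl1 and, in the mouse, Ccl8 on CCR8, Ccl20 on CCR6, Ccl17 and Ccl22 on CCR4, Ccl25 on CCR9, Ccl28 on CCR10 and CCR3, and Ccl5 on CCR1 and CCR3, among others.

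The promoters of 4 members are shown because these members gave the range of responses described here: Ccl1 and Ccl20 with large increases, Ccl17 with a rise at low counts and Ccl28 with a decrease. RefSeq promoters of the mouse build GRCm38.p6 matched 7 of the 10 members, and Ccl2, Ccl5 and Ccl7 were not among them. Each sequence is the 250 bases before the RefSeq start, 5′ to 3′ on the gene's strand, and capitals mark a match to a motif searched on both strands.
Ccl1, chr11:82179813-82180062, minus strand: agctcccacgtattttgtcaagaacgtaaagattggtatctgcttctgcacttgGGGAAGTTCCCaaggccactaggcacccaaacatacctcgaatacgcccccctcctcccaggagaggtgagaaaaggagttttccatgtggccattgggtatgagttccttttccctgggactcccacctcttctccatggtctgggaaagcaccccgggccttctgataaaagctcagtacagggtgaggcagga
Ccl20, chr1:83116516-83116765, plus strand: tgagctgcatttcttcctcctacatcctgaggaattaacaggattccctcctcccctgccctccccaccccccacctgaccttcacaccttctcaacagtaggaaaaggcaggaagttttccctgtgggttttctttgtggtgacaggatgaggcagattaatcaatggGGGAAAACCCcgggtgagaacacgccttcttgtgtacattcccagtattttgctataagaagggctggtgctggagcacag
Ccl17, chr8:94810203-94810452, plus strand: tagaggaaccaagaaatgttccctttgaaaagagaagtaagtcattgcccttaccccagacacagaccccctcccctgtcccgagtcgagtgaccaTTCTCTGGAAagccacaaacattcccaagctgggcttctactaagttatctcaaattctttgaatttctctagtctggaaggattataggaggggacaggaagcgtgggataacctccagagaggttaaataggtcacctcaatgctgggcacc
Ccl28, chr13:119623569-119623818, plus strand: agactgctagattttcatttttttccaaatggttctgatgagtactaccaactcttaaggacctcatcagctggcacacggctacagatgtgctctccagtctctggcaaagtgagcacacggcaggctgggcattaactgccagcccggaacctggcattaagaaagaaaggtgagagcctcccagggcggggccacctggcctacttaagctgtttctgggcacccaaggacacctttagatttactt

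The kappaB motif, the site of NF-kappaB proteins, was searched as GGGA and CC with any 4 bases between them. It was matched in Ccl1 as GGGAAGTTCC, which starts at -196 from the gene start (the base before the start is -1), with an overlapping match on the other strand at -195. Ccl20 held GGGAAAACCC at -81, and Ccl22 held GGATCCTCCC at -131, a match on the minus strand. These 3 of the 7 matched members compare with 17.6% of all 32851 mouse promoter windows of that length. The STAT6 motif, TTC and GAA with any 4 bases between them, read by a transcription factor of interleukin-4 and interleukin-13 signalling, was matched in Ccl17 alone among the 7, as TTCTCTGGAA at -154, against 5.85% of all windows. The TATA box TATAAA was found in Ccl8 at -32 and in a second start of Ccl25 at -16 (12.4% of all windows), and the AP-1 motif TGANTCA in none of the 7 (6.75% of all windows). No searched motif was matched in the Ccl28 window. A match describes letters only; binding was not measured.

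The libraries held between 16696212 and 21571935 counts, so that 3 counts, the upper limit that a count of 0 allows, correspond to 0.139 to 0.180 CPM, counts scaled by library size. This limit covers counting error only. Ppp1r8 itself averaged 36.4 ± 8.00 CPM in SKO and 37.9 ± 3.58 CPM in CTR libraries (SD, n = 4 each; adjusted p = 0.789); gene-level counts do not separate deleted from retained exons, so they do not check the genotype. All 4 Y-linked genes examined had 0 counts in every library. Xist, the RNA of the inactive X chromosome, was detected in all 8 and was lower in SKO libraries, with 419 ± 114 CPM against 792 ± 153 CPM in CTR libraries (log2 fold change -0.92, adjusted p = 0.00817). The mitochondrial share of counts was 0.781 to 0.984% in SKO and 1.15 to 1.26% in CTR libraries. All 6 keratinocyte markers examined were abundant, summing to 60570 to 79000 CPM in SKO and 37810 to 41950 CPM in CTR libraries; Krt1 and Krt10, keratins of the differentiating layers, rose, and Krt5, Krt14, Trp63 and Dsp were not called. The labels name no batch. In such bulk samples, more cells of a type and more RNA per cell cannot be told apart.

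Across the members, 5 genes rose in SKO epidermis (Ccl1, Ccl2, Ccl20, Ccl22 and Ccl25) and 1 fell (Ccl28). These 6 are the members that passed the count filter, about 0.518 CPM in at least 4 libraries. Of all 15638 genes tested with edgeR's quasi-likelihood test and Benjamini-Hochberg adjustment, 11.5% were called higher and 12.2% lower in SKO at an adjusted p below 0.05, or 23.7% in either direction. In all 6 members the SKO and CTR libraries did not overlap, which held for 26.2% of the genes tested. Ccl1, Ccl2 and Ccl20 passed the filter only through their SKO libraries, with 0, 1 and 3 CTR libraries at the filter's level, so they could hardly have been tested without a difference, and the count of calls is no support for the family. The other 4 members, Ccl5, Ccl7, Ccl8 and Ccl17, did not pass the filter and are given by their counts. Xist did not overlap between the groups, with 330 to 574 CPM in SKO and 647 to 994 CPM in CTR libraries. A fit with the Xist level as a further term therefore cannot fully separate it from genotype. A call lost in that fit does not tell whether the gene changed. When the Xist level of each library was added as a term to the fit, Ccl1 (log2 fold change 3.81, adjusted p = 0.0264) and Ccl2 (3.77, adjusted p = 0.0362) were still called. Ccl20 (2.12, adjusted p = 0.0691), Ccl22 (0.30, adjusted p = 0.479), Ccl25 (0.29, adjusted p = 0.731) and Ccl28 (-0.91, adjusted p = 0.396) were not, and that fit called 45 genes higher and 32 lower in all.

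**Figure D1:**
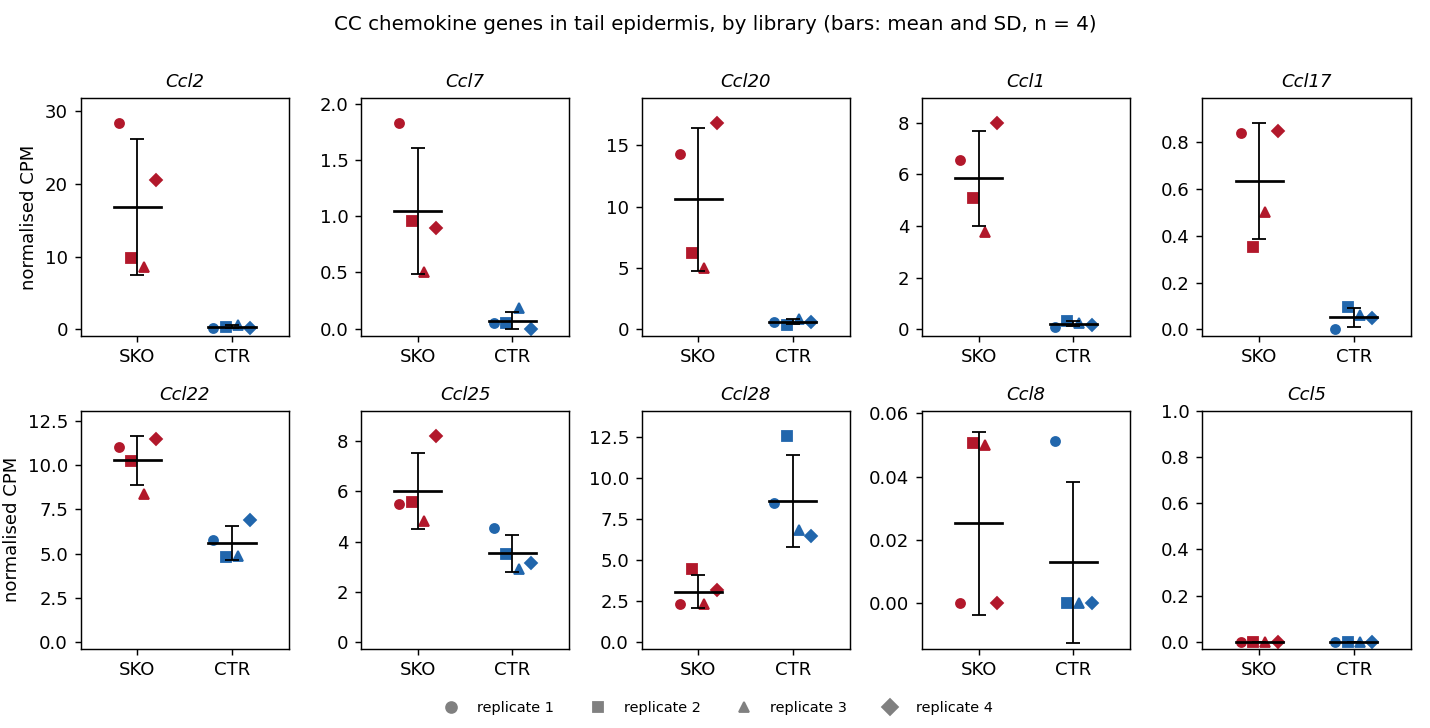
Each panel plots 1 CC chemokine gene, with normalised CPM on the vertical axis (each panel has its own scale from about 0) and the 4 SKO libraries left of the 4 CTR libraries; symbols mark replicates, and bars give the mean and SD. Ccl2, Ccl1 and Ccl20 lie near 0 in every CTR library and well above it in every SKO library, Ccl28 is lower in SKO, and Ccl5 is at 0 throughout.

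Of the CCR2 ligands, Ccl2 had the largest fold change of the 6 members tested. Ccl2 (monocyte chemoattractant protein 1, the main signal that draws CCR2-bearing monocytes), at chr11:82035571-82037453 on the plus strand, had 28.4, 9.81, 8.56 and 20.5 normalised CPM in the SKO libraries, against 0.205, 0.385, 0.619 and 0.235 CPM in the CTR libraries. The lowest SKO library was 13.8 times the highest CTR library. The fitted log2 fold change was 5.56 (SE 0.52), which is 47.2-fold, with an adjusted p of 0.000235 in edgeR's quasi-likelihood test. These values rest on 1294 counts in SKO and 27 in CTR libraries.

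Ccl7 (monocyte chemoattractant protein 3, a further CCR2 ligand) lies next to Ccl2, at chr11:82045712-82047525. It had 35, 19, 10 and 17 counts in the SKO libraries, against 1, 1, 3 and 0 counts in the CTR libraries. No CTR library reached the level of the lowest SKO library. The summed counts, 81 in SKO and 5 in CTR, gave a rate ratio of 16.4 with an exact 95% interval of 6.75 to 51.9 that covers counting error only. In the edgeR fit without a count filter its log2 fold change was 3.89 (adjusted p = 0.000752); that fit called 6.53% of 26685 genes higher in SKO.

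Macrophage, monocyte and fibroblast markers are given beside these ligands. Of 9 macrophage and monocyte markers, 3 passed the filter and none of these 3 was called. Of all genes tested, 23.7% were called in either direction, so this count carries little weight. The summed level of the 9 was 20.8 to 24.6 CPM in SKO and 15.2 to 20.3 CPM in CTR libraries, without overlap. Under the filter, C1qb had 16 counts in SKO and 2 in CTR libraries, with groups that did not overlap, and Lyz2 had 31 in SKO and 11 in CTR libraries, with groups that did. Of 6 fibroblast markers, 4 passed and none was called, again a count of little weight beside 23.7% of all genes tested. The summed level of the 6 was 17.5 to 56.1 CPM in SKO and 33.8 to 52.7 CPM in CTR libraries. The part of these cells in the Ccl2 and Ccl7 values was not tested.

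Ccl1 (the ligand of CCR8, a receptor of skin-homing and type 2 T cells) is at chr11:82176657-82305690 on the minus strand, a span that includes a long alternative transcript. It had 6.55, 5.11, 3.76 and 7.99 CPM in SKO libraries, against 0.102, 0.337, 0.247 and 0.188 CPM in CTR libraries. All 4 SKO libraries were high, and the lowest was 11.2 times the highest CTR library. Its log2 fold change was 4.70 (SE 0.36), or 26.0-fold, with an adjusted p of 0.000126 from 452 SKO and 17 CTR counts. Its promoter is the one above with the kappaB matches around -196.

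Ccl8 (monocyte chemoattractant protein 2, which in the mouse also acts on CCR8) was almost undetected, with 0, 1, 1 and 0 counts in SKO libraries and 1, 0, 0 and 0 counts in CTR libraries. Both groups lay at or under the limit of 3 counts per library, so no difference was detectable at this depth. Ccl5 (RANTES, made mainly by activated T cells and natural killer cells) had 0 counts in all 8 libraries, which allows at most 0.139 to 0.180 CPM per library.

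Ccl20 (the CCR6 ligand, which draws Langerhans cell precursors and interleukin-17-producing T cells to epithelia) is at chr1:83116766-83119167. It had 14.3, 6.27, 5.01 and 16.8 CPM in SKO libraries, against 0.615, 0.385, 0.866 and 0.612 CPM in CTR libraries. The SKO libraries split into a higher pair, SKO 1 and SKO 4, and a lower pair, and the lowest was still 5.78 times the highest CTR library. The log2 fold change was 4.11 (SE 0.46), or 17.2-fold, with an adjusted p of 0.000595 from 815 SKO and 47 CTR counts. Its promoter holds the kappaB match at -81.

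The CCR4 ligands lie on chromosome 8, and both had higher values in SKO libraries. Ccl22 (macrophage-derived chemokine, typically made by dendritic cells), at chr8:94745590-94751699, had 11.01, 10.2, 8.36 and 11.5 CPM in SKO libraries, against 5.79, 4.81, 4.89 and 6.87 CPM in CTR libraries. It was clearly detected in both groups, and the lowest SKO library was 1.22 times the highest CTR library. The log2 fold change was 0.87 (SE 0.16), or 1.83-fold (adjusted p = 0.00418 in edgeR's quasi-likelihood test). Its promoter, not printed above, holds the kappaB match at -131 on the minus strand.

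Ccl17 (thymus and activation-regulated chemokine, made by dendritic cells and keratinocytes), at chr8:94810453-94812036, had 16, 7, 10 and 16 counts in SKO libraries, against 0, 2, 1 and 1 counts in CTR libraries. The groups did not overlap. The summed counts of 49 and 4 gave a rate ratio of 12.4 (exact 95% interval 4.55 to 47.3, counting error only). Without the count filter edgeR gave a log2 fold change of 3.47 (adjusted p = 0.0013).

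Langerhans and dendritic cell markers are given beside these ligands. Of 10 such markers, 9 passed the filter, 7 of them rose and none fell, beside 11.5% of all genes tested called higher and 12.2% lower. Epcam and Flt3 were not called, and Cd209a, under the filter, had 9 counts in SKO and 12 in CTR libraries. The summed level was 418.5 to 592.8 CPM in SKO and 297.0 to 376.2 CPM in CTR libraries. Its largest part was Epcam, with means of 183 CPM in SKO and 170 CPM in CTR libraries. The part of these cells in the Ccl17 and Ccl22 values was not tested.

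Ccl25 (thymus-expressed chemokine, the CCR9 ligand known from thymus and small intestine), at chr8:4325210-4360020, had 5.50, 5.56, 4.81 and 8.21 CPM in SKO libraries, against 4.56, 3.51, 2.91 and 3.15 CPM in CTR libraries. The groups were barely apart, with a ratio of 1.05 between the lowest SKO and the highest CTR library. Its log2 fold change was 0.76 (SE 0.21), or 1.699-fold (adjusted p = 0.0252). The call was lost without SKO 4, where the log2 fold change was 0.58, and also without CTR 2, CTR 3 or CTR 4; the adjusted p ranged between 0.018 and 0.0685 over the 8 fits that each left out 1 library. Of its 7445 exon bases, 204 are shared with Elavl1 on the opposite strand, and the sources used here do not say whether reads were counted by strand.

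Ccl28 (mucosae-associated epithelial chemokine, made by epithelia and acting on CCR10) was the member that fell. At chr13:119623819-119654359, it had 2.31, 4.45, 2.35 and 3.18 CPM in SKO libraries, against 8.45, 12.6, 6.81 and 6.50 CPM in CTR libraries. The highest CTR value was in CTR 2, and the groups did not overlap. The log2 fold change was -1.48 (SE 0.27), which is 2.79-fold lower in SKO, with an adjusted p of 0.0046.

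The SKO libraries differed among themselves more for some members than for others. The highest SKO library was 3.31 times the lowest for Ccl2 and 3.36 times for Ccl20, but 1.37 times for Ccl22. Of the 8 members with more than 3 counts, SKO 3 was the lowest SKO library for 6 and SKO 4 the highest for 5, while SKO 1 was highest for Ccl2 and Ccl7. The 10 members together reached 70.7, 42.8, 33.9 and 70.0 CPM in the SKO libraries, against 19.8, 22.1, 16.6 and 17.6 CPM in the CTR libraries. No CTR library was lowest or highest for more than 3 of the 8.

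Levels of different genes were compared as CPM per kilobase of annotated exon. In SKO libraries Ccl2 led with 14.8 ± 8.25 CPM per kb (SD, n = 4), before Ccl20 with 7.46 ± 4.12, Ccl22 with 4.42 ± 0.591 and Ccl1 with 2.47 ± 0.772. The ranges of Ccl2 and Ccl20, and of Ccl20 and Ccl22, overlapped, while Ccl22 and Ccl1 were apart. In CTR libraries Ccl22 led with 2.404 ± 0.414 CPM per kb, its range overlapping that of Ccl28 with 1.77 ± 0.576, and Ccl2 had 0.317 ± 0.166 CPM per kb. The length counts every annotated exon, which matters for Ccl1 and Ccl25. The exons of GENCODE basic transcripts alone were also used, a choice made after seeing the data. Ccl1 then reached 9.55 CPM per kb in SKO and 0.357 in CTR libraries, and Ccl25 3.87 in SKO and 2.27 in CTR libraries. With these lengths the SKO mean of Ccl1 lay above those of Ccl20 (7.46) and Ccl22 (4.63). The place of Ccl1 in the order thus depends on the length used.

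**Figure D2:**
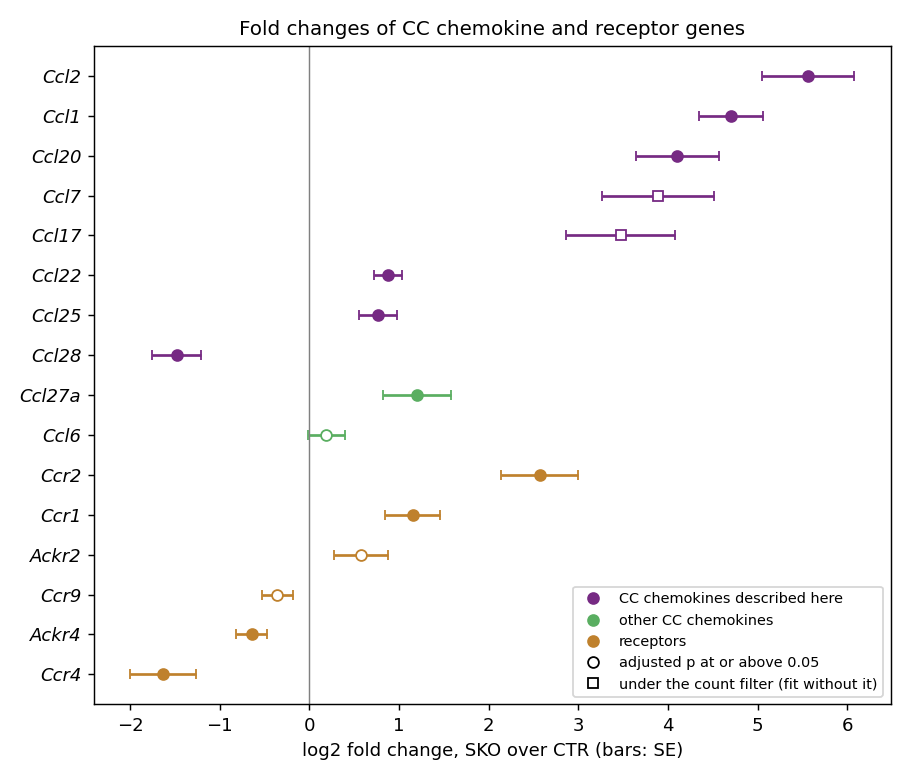
Points give the log2 fold change, SKO over CTR, of each chemokine and receptor gene that passed the filter, and bars give its SE; open circles had an adjusted p at or above 0.05, and squares mark Ccl7 and Ccl17 from the fit without a count filter. Ccl2 lies at 5.56, Ccl1 at 4.70 and Ccl20 at 4.11, while Ccl28 at -1.48 and the receptor gene Ccr4 at -1.63 lie on the other side of 0.

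As shares of all CC chemokine signal per kilobase, Ccl6 led in every CTR library and in SKO 2 and SKO 3. In SKO 1 and SKO 4 Ccl2 led. Ccl2, Ccl20 and Ccl1, among others, held larger shares in SKO libraries. Ccl2 made up 29.2 ± 7.94% in SKO and 1.69 ± 0.621% in CTR libraries, and Ccl20 14.9 ± 5.19% in SKO and 2.41 ± 0.624% in CTR libraries (SD, n = 4 each). Ccl6 (a myeloid cell chemokine of rodents, not among the 10) made up 29.8 ± 10.4% in SKO and 64.1 ± 5.27% in CTR libraries. Ccl28 made up 1.45 ± 0.675% in SKO and 9.93 ± 3.33% in CTR libraries, and Ccl1 5.22 ± 0.868% in SKO and 0.509 ± 0.220% in CTR libraries. With the exons of GENCODE basic transcripts alone, mean SKO shares were 28.7% for Ccl2, 26.05% for Ccl6, 14.1% for Ccl1 and 10.4% for Ccl20. The CTR shares were then 1.78% for Ccl2, 60.1% for Ccl6, 1.48% for Ccl1 and 1.81% for Ccl20. Shares add up to 100, so a rise of 1 gene lowers the others: the level of Ccl6 itself was 24.0 ± 6.06 CPM in SKO and 21.1 ± 5.19 CPM in CTR libraries (log2 fold change 0.19, 95% interval -0.27 to 0.65, adjusted p = 0.529).

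**Figure D3:**
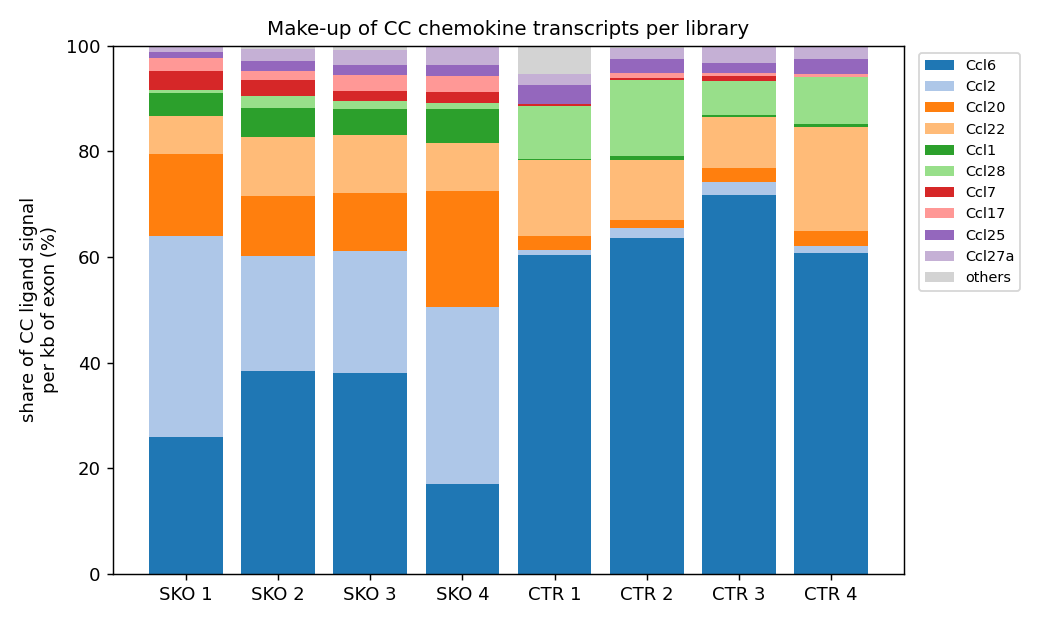
Stacked bars give each library's CC chemokine signal per kb of exon as percentages by gene, with the 4 SKO libraries left of the 4 CTR libraries; genes with small shares are pooled as others. Ccl6 makes up 64.1% on average in CTR and 29.8% in SKO libraries, where Ccl2 and Ccl20 take 29.2% and 14.9%.

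Several members are neighbours on the chromosome, and counts differed widely between neighbours. On chromosome 11, the lowest positions of Ccl2, Ccl7, Ccl11, Ccl12, Ccl8 and Ccl1 lie within 141 kb; Ccl1, on the minus strand, is read towards Ccl8 and has its lowest position at its 3′ end. Ccl2, Ccl7 and Ccl1 had 1294, 81 and 452 counts in SKO libraries, against 27, 5 and 17 in CTR libraries. Between them, Ccl11 (eotaxin, which draws eosinophils) had 3 counts in SKO and 0 in CTR libraries, Ccl12 had 0 in both and Ccl8 had 2 in SKO and 1 in CTR libraries. On chromosome 8, Cx3cl1, the CX3C chemokine gene between Ccl22 and Ccl17, had 30.9 ± 3.58 CPM in SKO and 27.8 ± 1.998 CPM in CTR libraries (log2 fold change 0.15, adjusted p = 0.279).

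**Figure D4:**
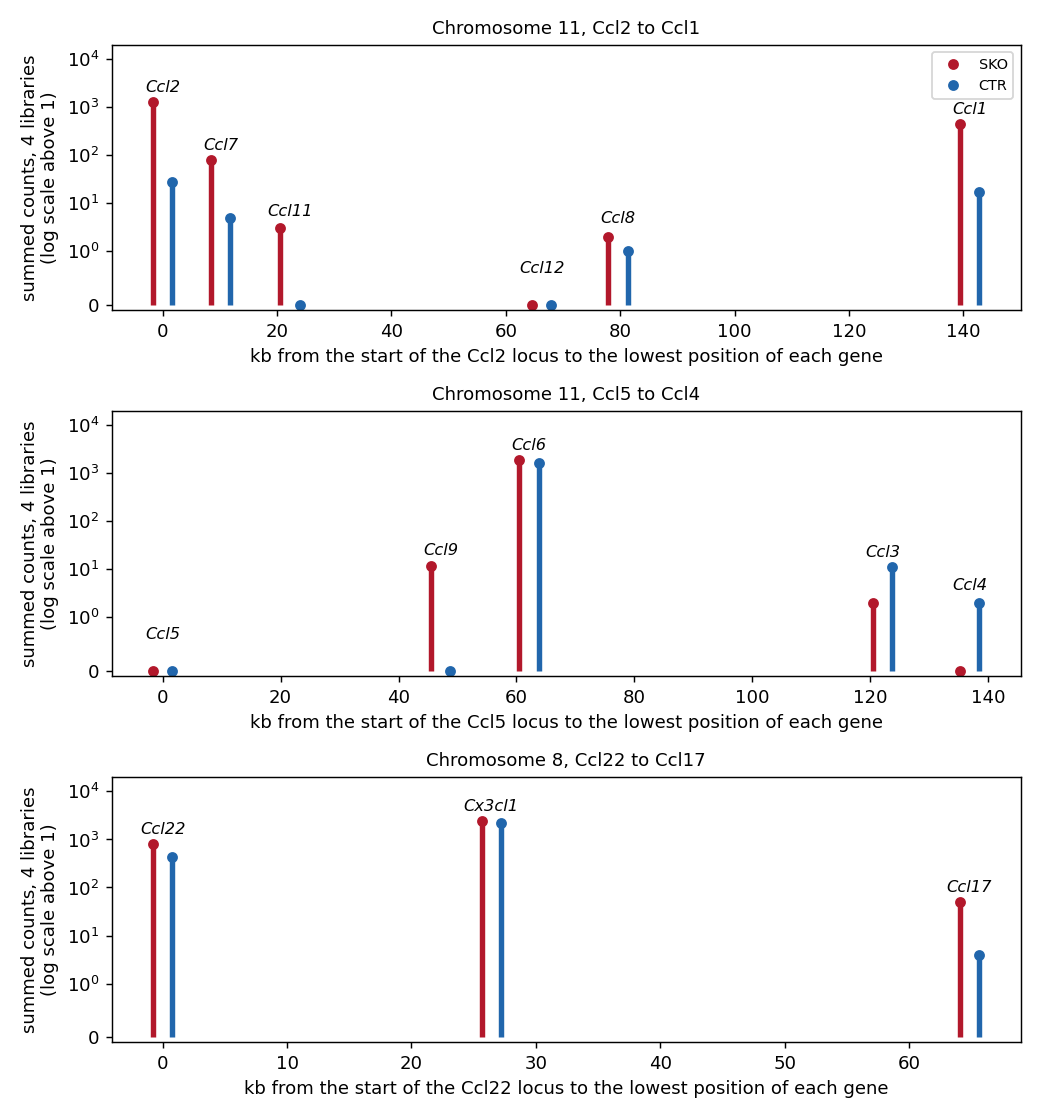
Stems show summed counts over 4 libraries (log scale above 1) against distance in kb within 3 chemokine gene clusters, with the SKO stem left of the CTR stem for each gene. Ccl2, Ccl7 and Ccl1 stand apart from Ccl11, Ccl12 and Ccl8, which have at most 3 counts in either group.

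The remaining CC chemokine genes were mostly near 0. Of 14 such genes, 13 matched the annotation, 2 passed the count filter and 6 had 0 counts in every library. Ccl27a (cutaneous T cell-attracting chemokine, the keratinocyte ligand of CCR10) had 1.36, 2.12, 2.204 and 4.34 CPM in SKO libraries, against 0.871, 0.914, 1.73 and 0.894 CPM in CTR libraries, which overlap through CTR 3. Its log2 fold change was 1.20 (SE 0.38, adjusted p = 0.0429), and the call was lost in 6 of the 8 fits without 1 library, namely SKO 2, SKO 3, SKO 4, CTR 1, CTR 2 or CTR 4. It has a near-identical copy, Ccl27b, so its count is uncertain. Ccl9, a rodent chemokine of macrophages, had 1, 3, 5 and 3 counts in SKO and 0 in all CTR libraries. Ccl3 had 2 counts in SKO and 11 in CTR libraries, 10 of them in CTR 1. Ccl4 had 0 in SKO and 2 in CTR libraries, and Ccl24 had 1 in SKO and 0 in CTR libraries.

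Receptor genes gave a mixed picture: of 15 examined, 6 passed the filter, 2 rose, 2 fell and 2 were not called, beside 11.5% of all genes tested called higher and 12.2% lower. Both that rose, Ccr2 and Ccr1, owed their place in the test to SKO libraries, with 0 and 2 CTR libraries at the filter's level, so the count of rises carries little weight. Ccr2, the receptor of Ccl2 and Ccl7, had 1.99, 1.06, 1.90 and 1.006 CPM in SKO libraries, against 0.154, 0.385, 0.371 and 0.0941 CPM in CTR libraries. All SKO libraries were above all CTR libraries, with a log2 fold change of 2.57 (SE 0.43), or 5.94-fold (adjusted p = 0.00314). Ccr1, a receptor of Ccl5 and Ccl7, averaged 1.22 ± 0.412 CPM in SKO and 0.550 ± 0.143 CPM in CTR libraries (log2 fold change 1.16, adjusted p = 0.0225), a call lost without CTR 1 or CTR 2.

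Ccr4, the receptor of Ccl17 and Ccl22, fell in SKO epidermis. It had 0.681, 1.16, 1.35 and 1.75 CPM in SKO libraries, against 1.74, 3.90, 5.69 and 4.10 CPM in CTR libraries. The groups met at SKO 4 and CTR 1, and the log2 fold change was -1.63 (SE 0.37), which is 3.10-fold lower in SKO (adjusted p = 0.0119). Ackr4, an atypical receptor that takes up Ccl25 as well as Ccl19 and Ccl21, averaged 20.6 ± 4.43 CPM in SKO and 32.2 ± 5.995 CPM in CTR libraries. Its log2 fold change was -0.64 (adjusted p = 0.0241), lost without SKO 4, CTR 2 or CTR 3, and 479 of its exon bases are shared with Acad11 on the opposite strand.

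Ccr9, the Ccl25 receptor, averaged 2.74 ± 0.374 CPM in SKO and 3.51 ± 0.483 CPM in CTR libraries (log2 fold change -0.36, 95% interval -0.75 to 0.03, adjusted p = 0.167 in edgeR's quasi-likelihood test). Of its 10260 exon bases, 1932 are shared with AC165425.1 on the opposite strand and 269 with Gm17200 on the same strand. Ackr2, the scavenger of inflammatory CC chemokines, had a log2 fold change of 0.58 (95% interval -0.10 to 1.248, adjusted p = 0.193). Ccr6, the Ccl20 receptor, stayed under the filter with 10, 3, 6 and 7 counts in SKO libraries, against 0, 0, 3 and 0 counts in CTR libraries; its rate ratio was 8.77 (exact 95% interval 2.69 to 45.3, counting error only). Without the filter edgeR gave it an adjusted p of 0.0346. The receptors of Ccl1 and Ccl28 were scarce: Ccr8 had 3 counts in SKO and 1 in CTR libraries, and Ccr10 had 25 in SKO and 13 in CTR libraries. Ccr7, the receptor of migrating dendritic cells, had 18 counts in SKO and 3 in CTR libraries. Ccrl2 had 19 in SKO and 12 in CTR, Ackr1 10 in SKO and 15 in CTR, Ccr3 0 in SKO and 1 in CTR, and Ccr1l1 0 in both. With the Xist term none of the 4 receptor calls was kept: the log2 fold change was 3.22 for Ccr2 (adjusted p = 0.0749), 1.86 for Ccr1 (adjusted p = 0.102) and -1.253 for Ccr4 (adjusted p = 0.402), and 0.13 for Ackr4, where the sign turned (adjusted p = 0.747).

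**Figure D5:**
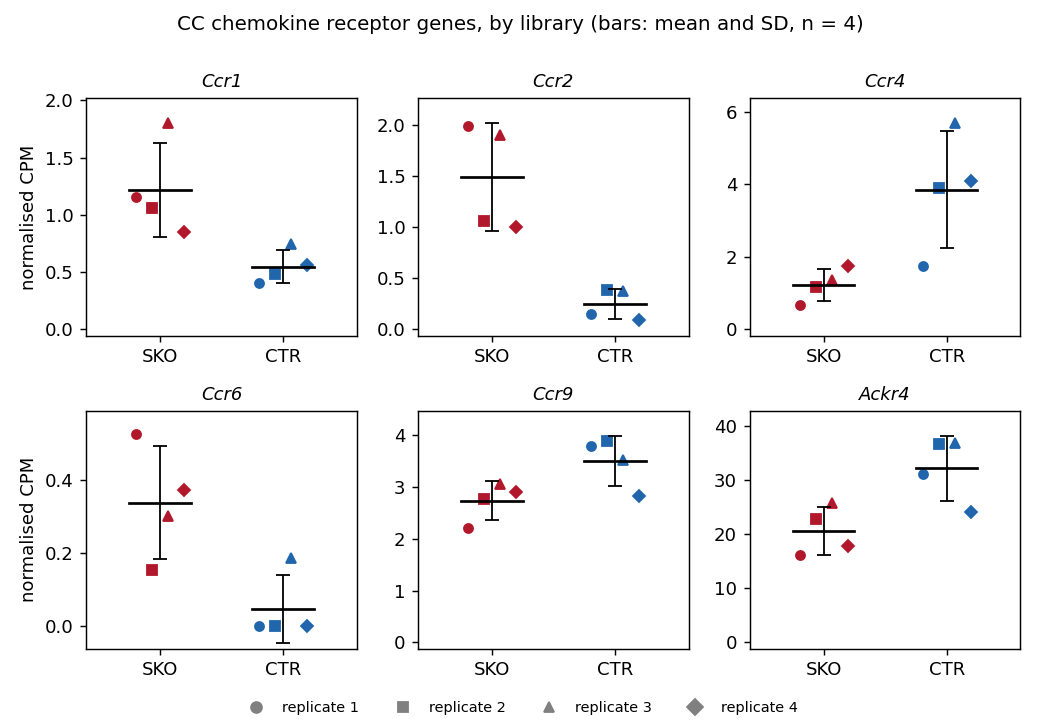
Panels plot normalised CPM of 6 CC chemokine receptor genes by library, SKO left of CTR, with the mean and SD as bars and symbols for replicates. Ccr2 is higher in every SKO library, while Ccr4 and Ackr4 averaged lower in SKO with groups that overlap, and Ccr6 rests on 26 counts in SKO and 3 in CTR libraries.

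Lymphocyte markers are given beside these receptors. Of 10 T and NK cell markers, 4 passed the filter, of which 3 rose and Thy1 fell, beside 11.5% of all genes tested called higher and 12.2% lower. The summed level was 25.3 to 32.0 CPM in SKO and 20.3 to 31.3 CPM in CTR libraries. Its largest parts moved in opposite directions: Trbc2, with means of 16.2 CPM in SKO and 8.79 CPM in CTR, and Thy1, with 9.29 CPM in SKO and 16.0 CPM in CTR. Of 7 gamma delta T cell markers, Trdc alone passed and rose, and the 7 summed to 2.70 to 4.20 CPM in SKO and 0.471 to 1.05 CPM in CTR libraries. Cd3e, Cd247 and Trdc passed the filter only through their SKO libraries, with at most 0.247, 0.309 and 0.495 CPM in CTR libraries, so their calls are no count of what moved. Their part in the receptor values was not tested. Of 6 mast cell genes, Cma1 and Fcer1a were at 0 in every library. Cpa3 had 3 counts in SKO and 0 in CTR libraries, Tpsb2 2 in SKO and 0 in CTR, and Mcpt4 1 in SKO and 4 in CTR. Kit passed the filter with 1022 counts in SKO and 1131 in CTR libraries and was not called.

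Among genes known to induce CC chemokines, 11 of the 22 listed rose. Of these 22 cytokine and NF-kappaB pathway genes, 15 passed the filter, none of which fell and 4 of which were not called, beside 11.5% of all genes tested called higher; the median log2 fold change of the 15 was 0.54, beside -0.0026 over all genes tested. Tslp and Tnf passed the filter only through SKO, with 0 CTR libraries at its level. Tslp (an epithelial cytokine that makes dendritic cells produce Ccl17 and Ccl22) had 1.101, 2.07, 1.30 and 4.66 CPM in SKO libraries, against 0.102, 0.241, 0.309 and 0.0941 CPM in CTR libraries. That is 12.2-fold, with a log2 fold change of 3.61 (adjusted p = 0.00311), and 3.001 without SKO 4, the highest library. Tnf, a classical activator of NF-kappaB, had 1.33 ± 0.405 CPM in SKO and 0.277 ± 0.0789 CPM in CTR libraries (log2 fold change 2.26, adjusted p = 0.00167).

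Some interleukin-36 cytokines, which act on keratinocytes, and some NF-kappaB subunits were also among the genes that rose. In edgeR's quasi-likelihood test, Il36a had a log2 fold change of 1.39 (adjusted p = 0.00226) and Il36b 0.70 (adjusted p = 0.00443). For Nfkb2, which encodes p100, the precursor of the p52 subunit, the same test gave 0.72 (adjusted p = 0.00279). Il36g (log2 fold change 0.54) and the subunit Rel (-0.09) were not called. Il1a, with a log2 fold change of -0.01 (95% interval -0.32 to 0.31), was not called either. Il1b, a classical inducer, stayed under the filter with 0, 6, 5 and 1 counts in SKO libraries, against 28, 5, 3 and 5 counts in CTR libraries, which overlap apart from the high CTR 1. Ifng and Il22 had 0 counts in all libraries, Il4 had 0 counts in SKO and 2 in CTR libraries, and Il17a had 3 in SKO and 0 in CTR libraries. With the Xist term none of the 11 calls was kept, with log2 fold changes of 2.69 for Tslp (adjusted p = 0.231), 1.695 for Il36a (adjusted p = 0.0739), 0.86 for Il36b (adjusted p = 0.102) and 0.45 for Nfkb2 (adjusted p = 0.263).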

How the data were processed

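Poly(A) RNA libraries of tail epidermis from 4 SKO and 4 CTR mice were made with a stranded kit and read as single 75-base reads, per the labels. The authors deposited raw counts per Ensembl gene. The submitters' processing notes name the build GRCm38, edgeR 3.8.6, featureCounts 1.4.6, STAR 2.4.1d, Bowtie2 2.2.4, cutadapt 1.7.1, bedtools 2.17.0, Cufflinks 2.1.1 and SAMtools 1.1; the annotation release and the strand setting of the counting are not given in the sources used here. Of 46983 identifiers, 46488 matched a GENCODE M21 symbol, 37902 of them with the version; coordinates and exon lengths come from that release.

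Groups follow the labelled genotype. Replicate numbers follow accession order and pair nothing; p-values measure the spread between mice. No replicate pair was a duplicate. Counts were fitted with edgeR 4.0.16 (quasi-likelihood, TMM factors, filterByExpr with a minimum of 10 counts, R 4.3.3) over all 15638 genes passing, group as the only term, two-sided, Benjamini-Hochberg threshold 0.05; SE is the log2 fold change over the square root of F. CPM use TMM-scaled totals. The fit was tested on simulated data. The alternatives were DESeq2 1.42.0 and its size factors, library totals, upper-quartile factors, no filter, a mean of at least 1 CPM, a robust fit, an Xist term and leaving out each library. Rate-ratio intervals are exact at 95%.

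All 10 members were named whatever their values; other chemokine genes were named where they passed the filter and otherwise given by counts, receptors all but 1, which is not reported here, and among the inducers the 4 called genes that changed most, given a mean level of 1 CPM or more. Tnf, Il1a, Il1b, Il36g, Rel, Ifng, Il22, Il4, Il17a and the markers named singly were chosen after their values were seen. The members and lists were chosen with earlier results of these data known.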

Additional observations from a re-analysis of the deposited data

Results flagged for a closer look

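Among 44 groups of 4 libraries examined, of which chance alone sets apart about 1 in 20, 2 held a library far from its others. Ccl27a had 1.73 CPM in CTR 3, while the other CTR libraries had 0.871 to 0.914 CPM. Ccl8 had 0.0512 CPM in CTR 1, which is 1 count, with 0 in the other CTR libraries.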

How the results depend on the processing

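No paired analysis was possible because the labels give animal IDs but no replicate number, litter or batch that ties an SKO to a CTR mouse. Over all genes, 1792 were called higher and 1908 lower in SKO; leaving out 1 library gave 1253 to 2058 higher and 1336 to 2312 lower, and the Xist term gave 45 higher and 32 lower. Among the members, the Xist term left 2 higher and 0 lower, and leaving out 1 library gave 4 to 6 higher. The other CC chemokine genes had 2 called higher without a filter and 0 with the Xist term, and 0 to 1 when 1 library was left out. The receptors had 0 called higher with a mean of at least 1 CPM, where 3 were tested, and 0 higher and 0 lower with the Xist term; leaving out 1 library gave 1 to 2 in each direction. The inducing genes had 0 called higher with the Xist term. The sign turned in 2 results, both with the Xist term: Ccr9 to 0.0255 and Ackr4 to 0.13. The cause of these changes was not tested, and the Xist level itself did not overlap between the groups. Members under the filter, with at most 35 counts a library, are limited by depth.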
